A study of Homo sapiens with 24 samples.

Results

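The genes described are 10 genes grouped here as negative-feedback genes of the ERK pathway, namely 6 dual-specificity phosphatase genes (DUSP1, DUSP4, DUSP5, DUSP6, DUSP8 and DUSP10), the Sprouty genes SPRY2 and SPRY4, and the Sprouty-related genes SPRED1 and SPRED2. The group is loose, since the products of DUSP8 and DUSP10 act chiefly on the related kinases JNK and p38. They were chosen by symbol from the 58302 genes of a table for A549 cells, an established human lung adenocarcinoma line. The choice was made with values in view, because DUSP5 had been seen to rise most with metformin in vector cells. All 10 symbols were found in the table, and all 10 passed the filter for testing, a mean FPKM of 1 or more across all 12 libraries. So did 12607 genes in all. FPKM, fragments per kilobase of exon scaled to the library's mapped fragments, is a level per length. The file names no unit, and the values could as well be RPKM, the same measure for reads.

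The series was made to learn what GPD1 does to tumour cell growth when metformin is or is not present. GPD1 makes glycerol 3-phosphate in the cytosol and in doing so oxidises NADH. Metformin, a drug against diabetes, slows mitochondrial respiration at complex I. Polyadenylated RNA was sequenced from 4 groups of A549 cells with 3 libraries each. The groups were cells with a GPD1 lentivirus in medium with 10 mM metformin (GPD1 metformin), cells with that virus and no metformin (GPD1 untreated), cells with a blank lentivirus and 10 mM metformin (vector metformin), and cells with the blank virus and no metformin (vector untreated). Every group had thus been transduced. The promoter that drives GPD1, the length of the treatment, and whether the transduced cells were a pool or a clone are stated in none of the labels. Another 12 samples, of the renal carcinoma line 786-O, are left aside (not analysed here).

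In the ERK pathway, growth factor receptors load RAS with GTP, RAS activates RAF, RAF phosphorylates MEK, and MEK phosphorylates ERK. Active ERK enters the nucleus and turns on early genes, among them genes whose products shut the pathway down again. MAP kinase phosphatases, the DUSP proteins described here, remove phosphate from both the threonine and the tyrosine of the activation loop of ERK, JNK or p38. Sprouty and SPRED proteins act upstream, at the level of receptor adaptors, RAS and RAF. In tumour cells the levels of these transcripts are often read as a trace of ERK output, although several of them are also induced by stress.

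GPD1 was at 13.5 ± 0.270 FPKM in GPD1 metformin and 15.8 ± 0.855 FPKM in GPD1 untreated libraries, against 0.0538 ± 0.0251 FPKM in vector metformin and 0.0770 ± 0.0323 FPKM in vector untreated libraries (SD, n = 3 each), so the libraries labelled GPD1 held the transcript. The spacing of the lowest values implies 13.3 M to 18.0 M reads or fragments per library. Of 7 markers of A549 or epithelial cells, 5 reached 1 FPKM on average. KRT19 did not pass 0.0869 FPKM in any library, and EPCAM lay between 0.240 and 1.57 FPKM. Of 6 markers of other cell types, CD3E and COL1A2 were at 0 in all 12 libraries, and CD68 alone reached 1 FPKM on average. The 6 summed to 4.90 to 7.04 FPKM in GPD1 metformin and 2.63 to 3.14 FPKM in GPD1 untreated, and to 7.37 to 9.12 FPKM in vector metformin and 2.02 to 2.74 FPKM in vector untreated libraries, so the sum moved with metformin. Of 5 kidney markers PAX2 alone reached 1 FPKM on average, and the 5 summed to at most 2.80 FPKM in any library. Genes of the mitochondrial genome took 10.3% to 11.4% of summed FPKM in GPD1 metformin and 30.2% to 32.3% in GPD1 untreated, and 13.7% to 14.9% in vector metformin and 32.9% to 33.2% in vector untreated. Of the reads implied by exon length they took less. That share was 5.69% to 6.28% in GPD1 metformin and 10.9% to 11.7% in GPD1 untreated, and 6.61% to 6.72% in vector metformin and 12.5% to 12.8% in vector untreated. Totals without mitochondrial genes were therefore tried as alternatives. In bulk RNA, fewer cells that express a gene and less of its RNA per cell cannot be told apart. The labels do not tie the replicates to separate cultures. All p-values therefore reflect the spread among these libraries alone, and that spread may be technical.

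With metformin in GPD1 cells, 6 of the 10 feedback genes rose, 3 fell and 1, SPRY4, did not pass the test. Those that rose were DUSP5, DUSP8, DUSP1, DUSP10, DUSP4 and SPRY2, in falling order of their log2 fold change, and those that fell were SPRED1, DUSP6 and SPRED2. Calls of the 10 genes therefore went in both directions, as calls among all tested genes did. DUSP5 and DUSP6, ERK phosphatases of the nucleus and of the cytoplasm, changed in opposite directions. Of all tested genes 26.1% rose and 48.0% fell in the same comparison (limma on log2(FPKM + 1), adjusted p under 0.05), together 74.2%, so a call as such was common. The 9 of 10 called among the feedback genes stand against that share. DUSP8, at a mean of 0.697 FPKM in GPD1 untreated, and DUSP6, at 0.352 FPKM in GPD1 metformin, lay below 1 FPKM there. They passed the filter through groups where they were higher, so the filter was not blind to the differences tested. Without the filter both genes were still called in this comparison. The median log2 fold change was 0.30 over the 10 genes and -0.20 over all tested genes. In 9 of the 10 genes the libraries with and without metformin did not overlap, the exception being SPRY4, and the same held for 77.1% of all tested genes.

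**Figure D1:**
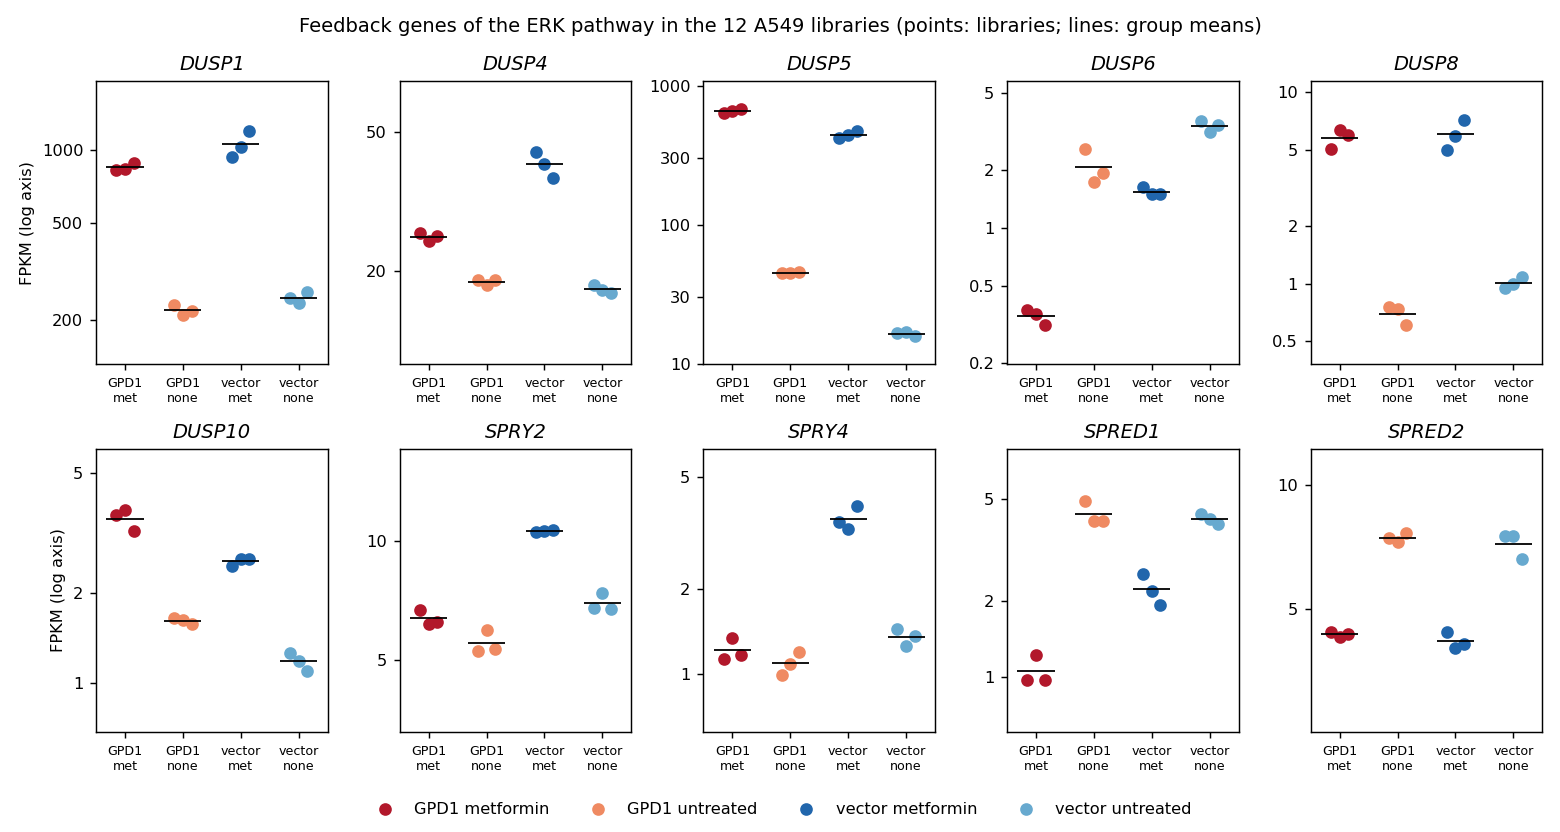
Level of each of the 10 genes in FPKM on a log axis, in 12 libraries of 4 groups (met, 10 mM metformin; none, no metformin), with points for libraries and lines for group means. DUSP5 ran from 15.9 FPKM in a vector untreated library to 673 FPKM in a GPD1 metformin library, and DUSP6 from 3.59 FPKM in a vector untreated library to 0.317 FPKM in a GPD1 metformin library.

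DUSP5 encodes a nuclear phosphatase that acts on ERK and hardly on JNK or p38, and that also anchors ERK in the nucleus. It lies at chr10:110497838-110511544 on the plus strand, with 5 merged exons (GRCh38 and GENCODE release 29, as for the other gene places). Its level was 634, 658 and 673 FPKM in GPD1 metformin libraries, against 44.6, 44.7 and 46.0 FPKM in GPD1 untreated libraries. Vector cells had 418, 443 and 469 FPKM with metformin and 16.5, 16.9 and 15.9 FPKM without. The 4 groups did not overlap at any point, and their order was GPD1 metformin, vector metformin, GPD1 untreated and vector untreated. Among the 12607 tested genes DUSP5 ranked 51st by level in GPD1 metformin, 564th in GPD1 untreated, 83rd in vector metformin and 1757th in vector untreated cells.

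The stated reason for choosing DUSP5 did not use GPD1 cells, although earlier results of these data were known. The SE pools the spread of all 12 libraries, vector libraries included. In GPD1 cells DUSP5 rose 14.5-fold with metformin (log2 fold change 3.83, SE 0.05; adjusted p = 3.02e-12 by limma). Only 11 of the 12607 tested genes rose more. In vector cells its level was 27.0-fold higher with metformin, a log2 fold change of 4.67, and no tested gene had a larger one. That comparison chose the gene, so its value is given as a description and without a test. Untreated GPD1 cells held 2.75 times the DUSP5 of untreated vector cells, 45.1 ± 0.768 against 16.4 ± 0.509 FPKM (SD, n = 3 each). With metformin the ratio was 1.48, from 655 ± 19.9 FPKM in GPD1 cells against 443 ± 25.3 FPKM in vector cells. The log2 response to metformin differed by -0.84 (GPD1 cells minus vector cells), while the level reached was higher in GPD1 cells. These 3 comparisons share the vector libraries with the choice of DUSP5 and were not tested for it. DUSP5P1, a processed pseudogene copy that could share reads with it, stayed between 0.269 and 1.63 FPKM.

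DUSP1, the first MAP kinase phosphatase described, is an immediate-early gene of the nucleus whose product acts on p38 and JNK as well as ERK, and which is induced by many stresses. It lies at chr5:172768090-172771195 on the minus strand, with 4 merged exons. DUSP1 stood at 828, 836 and 885 FPKM in GPD1 metformin libraries, against 232, 211 and 219 FPKM in GPD1 untreated libraries. With the blank virus it was at 939, 1029.8 and 1201 FPKM with metformin and at 247, 236 and 260.5 FPKM without. Every library with metformin lay above every library without it, and the 4 groups did not overlap. In GPD1 cells DUSP1 rose 3.85-fold (log2 fold change 1.94, SE 0.08; adjusted p = 5.64e-09 by limma), and in vector cells its log2 fold change was 2.08, given as a description. With metformin, GPD1 cells held 850 ± 31.0 FPKM and vector cells 1057 ± 133 FPKM (SD, n = 3 each). The log2 fold change was -0.31, with an SE of 0.08 (limma, adjusted p = 0.00659). That call ended under upper-quartile scaling, with a log2 fold change of -0.06 (limma, adjusted p = 0.554). Without metformin the difference did not pass the test, with a log2 fold change of -0.17 and a 95% interval from -0.34 to 0.01 (limma, adjusted p = 0.172).

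DUSP8 encodes a phosphatase of the cytoplasm and nucleus that acts on JNK and p38 and little on ERK. It lies at chr11:1554044-1571920 on the minus strand and is weakly expressed in these cells, with 44 to 504 reads per library implied by the depth. DUSP8 was at 5.03, 6.33 and 6.01 FPKM in GPD1 metformin libraries, against 0.7499, 0.735 and 0.605 FPKM in GPD1 untreated libraries. Among vector cells the levels were 5.01, 5.92 and 7.17 FPKM with metformin and 0.950, 0.996 and 1.08 FPKM without. The libraries of both cell populations overlapped with metformin, and all of them lay above every untreated library. In GPD1 cells DUSP8 rose 8.31-fold in mean FPKM (log2 fold change 2.00, SE 0.11; adjusted p = 3.55e-08 by limma), and in vector cells its log2 fold change was 1.797. Neither difference between GPD1 and vector cells passed the test. The log2 fold change was -0.04 with metformin, with a 95% interval from -0.28 to 0.19 (limma, adjusted p = 0.747), and -0.24 without it, with an interval from -0.48 to -0.01 (limma, adjusted p = 0.139). With a pseudocount of 0.1 in place of 1, which damps low levels less, the untreated difference was -0.48 (limma, adjusted p = 0.0320). DUSP8P3, a processed pseudogene copy of DUSP8, was at 1.40, 1.77 and 1.14 FPKM in GPD1 metformin libraries against 0.549, 0.457 and 0.543 FPKM in GPD1 untreated libraries. DUSP8P5, another such copy, moved the other way, at 0.189, 0.382 and 0.214 FPKM in GPD1 metformin and 1.84, 2.03 and 1.55 FPKM in GPD1 untreated libraries. In those untreated libraries DUSP8P5 stood above DUSP8. The same held in vector untreated libraries, where DUSP8P5 was at 1.53, 1.85 and 1.70 FPKM. In vector metformin libraries it was at 1.25, 0.736 and 1.06 FPKM. DUSP8P3 was at 1.70, 1.64 and 1.68 FPKM in vector metformin and 0.275, 0.486 and 0.941 FPKM in vector untreated libraries. DUSP8P4 did not pass 0.781 FPKM in any library. The labels do not say how reads shared with a copy were counted. Values of DUSP8 near or below 1 FPKM, and folds over them, are uncertain to that extent.

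DUSP1 and DUSP8 also shared a sequence feature that played no part in their choice, and their promoters are shown for it. Of the 10 genes, 8 had at least 1 promoter window in the RefSeq table (GRCh38.p14), which runs from 250 bases before a start to 50 after it, 12 windows in all. The full cAMP response element, the 8 letters TGACGTCA, which reads the same on both strands, occurred in the windows of these 2 genes alone among the 8. It starts 125 bases before the start of DUSP1, and 118 and 74 bases before that of DUSP8. It occurs in 1.85% of all 35116 windows there, and in at least 1 window of 2.25% of the 27305 genes. The RefSeq start of DUSP8 lies upstream of its start in the annotation used for the gene places. Both sequences are given 5′ to 3′ on the strand of the gene, with the element in capitals.
DUSP1, chr5:172771146-172771445, minus strand: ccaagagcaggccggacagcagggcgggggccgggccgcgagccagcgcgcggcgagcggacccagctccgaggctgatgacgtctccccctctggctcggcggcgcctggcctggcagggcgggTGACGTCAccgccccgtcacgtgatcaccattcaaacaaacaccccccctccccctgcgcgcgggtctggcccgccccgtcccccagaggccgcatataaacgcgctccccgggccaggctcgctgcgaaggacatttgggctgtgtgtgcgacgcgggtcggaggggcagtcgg
DUSP8, chr11:1572222-1572521, minus strand: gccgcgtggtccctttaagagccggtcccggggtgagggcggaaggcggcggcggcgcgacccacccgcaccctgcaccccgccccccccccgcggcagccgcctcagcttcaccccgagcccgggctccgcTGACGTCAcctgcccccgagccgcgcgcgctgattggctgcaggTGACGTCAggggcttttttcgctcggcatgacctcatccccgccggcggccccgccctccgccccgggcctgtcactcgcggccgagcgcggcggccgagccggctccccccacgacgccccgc
A match is a description of these letters and not evidence of a bound factor.

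The other motifs searched, on both strands, were AP-1 (TGANTCA), ETS (CCGGAAGT), the amino acid response element (TGATGCAA) and the CArG box that SRF binds. AP-1 was found at 2 places in the second window of SPRED2 and in no other window of the 8 genes, and the other 3 motifs were in none of the 12 windows. Over all windows of the table the shares were 7.71% for AP-1, 4.14% for ETS, 0.866% for the amino acid response element and 1.29% for the CArG box. No window of DUSP4 or DUSP5 was searched.

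DUSP10, at chr1:221701424-221742176 on the minus strand, encodes a phosphatase that acts on p38 and JNK. Its levels were low, at 3.62, 3.76 and 3.21 FPKM in GPD1 metformin libraries, against 1.65, 1.62 and 1.57 FPKM in GPD1 untreated libraries. Vector cells had 2.46, 2.58 and 2.59 FPKM with metformin and 1.26, 1.19 and 1.10 FPKM without. The 4 groups did not overlap, and GPD1 cells lay above vector cells in both media. DUSP10 rose 2.18-fold with metformin in GPD1 cells (log2 fold change 0.79, SE 0.06; adjusted p = 3.38e-07 by limma). It was also higher in GPD1 than in vector cells, by a log2 fold change of 0.35 ± 0.06 with metformin (limma, adjusted p = 0.000312) and of 0.26 ± 0.06 without it (limma, adjusted p = 0.00782). DUSP10 was the only one of the 9 genes tested in those comparisons to be called higher in GPD1 cells in either medium.

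DUSP4, at chr8:29333064-29350668 on the minus strand, encodes a nuclear phosphatase of ERK, JNK and p38 that is itself an ERK target. It was at 25.7, 24.5 and 25.2 FPKM in GPD1 metformin libraries, against 18.8, 18.3 and 18.8 FPKM in GPD1 untreated libraries. In vector cells the levels were 43.9, 40.7 and 37.0 FPKM with metformin and 18.3, 17.6 and 17.3 FPKM without. The untreated libraries of both populations overlapped, and the vector metformin libraries stood well above all others. In GPD1 cells DUSP4 rose 1.35-fold (log2 fold change 0.41, SE 0.06; adjusted p = 5.29e-05 by limma), while its log2 fold change in vector cells was 1.15. With metformin, DUSP4 was 1.61-fold lower in GPD1 than in vector cells (log2 fold change -0.67, SE 0.06; adjusted p = 2.32e-06 by limma). The log2 responses to metformin differed by -0.73 ± 0.08, GPD1 cells minus vector cells (SE; limma interaction, adjusted p = 3.68e-05). The rise in GPD1 cells was lost when summed FPKM without mitochondrial genes was used as the total, with a log2 fold change of 0.04 (limma, adjusted p = 0.577).

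DUSP6 encodes the cytoplasmic phosphatase specific for ERK and is among the transcripts most often used as a readout of ERK activity. It lies at chr12:89347232-89353271 on the minus strand. DUSP6 was at 0.377, 0.361 and 0.317 FPKM in GPD1 metformin libraries, against 2.57, 1.73 and 1.93 FPKM in GPD1 untreated libraries. Vector libraries read 1.63, 1.51 and 1.499 FPKM with metformin and 3.59, 3.12 and 3.41 FPKM without. The groups did not overlap, and both metformin and GPD1 went with lower levels. It fell 5.91-fold with metformin in GPD1 cells (log2 fold change -1.18, SE 0.09; adjusted p = 5.45e-07 by limma), and was 2.19-fold lower with metformin in vector cells. In GPD1 cells against vector cells DUSP6 was 4.39-fold lower with metformin (log2 fold change -0.91 ± 0.09; limma, adjusted p = 7.82e-06) and 1.63-fold lower without it (-0.52 ± 0.09; limma, adjusted p = 0.00217). The log2 changes are smaller than the folds of FPKM because the pseudocount of 1 damps changes at such levels.

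The deeper fall of DUSP6 in GPD1 cells, a log2 difference of -0.40 ± 0.13 between the responses (SE; limma interaction, adjusted p = 0.0263), depended on more choices than the fall itself. It missed the threshold without the filter on low genes (limma, adjusted p = 0.0637). It also missed it without the third GPD1 metformin library (-0.38; limma, adjusted p = 0.0547), the first vector metformin library (-0.37; limma, adjusted p = 0.0553) or the second vector untreated library (-0.35; limma, adjusted p = 0.0618). AC024909.2, a long noncoding gene on the opposite strand, shares 1875 exon bases with DUSP6, and the strand of the libraries is not given in the sources used here. It was at 0.152, 0 and 0.286 FPKM in GPD1 metformin libraries, against 3.03, 2.65 and 2.66 FPKM in GPD1 untreated libraries. The vector libraries held 0.108, 0.789 and 0.183 FPKM with metformin and 4.18, 4.12 and 4.20 FPKM without. Reads of the pair cannot be told apart where they overlap, and both were lower with metformin.

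SPRY2 and SPRY4 encode Sprouty proteins, membrane-associated inhibitors induced by ERK that block signalling from receptor tyrosine kinases to RAS and RAF. They lie on the minus strand at chr13:80335976-80340951 and chr5:142310427-142326455. SPRY2 was at 6.70, 6.18 and 6.23 FPKM in GPD1 metformin libraries, against 5.26, 5.94 and 5.33 FPKM in GPD1 untreated libraries. Levels in vector cells were 10.5, 10.6 and 10.6 FPKM with metformin and 6.75, 7.36 and 6.74 FPKM without. Vector metformin stood apart above the other 3 groups, which lay close together without overlapping. SPRY2 rose 1.16-fold with metformin in GPD1 cells (log2 fold change 0.18, SE 0.05; adjusted p = 0.0103 by limma), and its log2 fold change in vector cells was 0.54. With summed FPKM without mitochondrial genes as the total the sign turned, to -0.15 (limma, adjusted p = 0.0271). With read totals without those genes it was 0.11 (limma, adjusted p = 0.0903).

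For SPRY4, too, the vector metformin libraries stood highest. It was at 1.13, 1.34 and 1.16 FPKM in GPD1 metformin libraries, against 0.993, 1.08 and 1.20 FPKM in GPD1 untreated libraries. Vector cells gave 3.44, 3.26 and 3.92 FPKM with metformin and 1.44, 1.26 and 1.36 FPKM without. The GPD1 libraries with and without metformin overlapped, whereas every vector metformin library was above every other library. In GPD1 cells the log2 fold change with metformin was 0.08 ± 0.07, with a 95% interval from -0.08 to 0.24 (limma, adjusted p = 0.327), against 0.95 in vector cells. It was called higher under median-ratio scaling (0.26; limma, adjusted p = 0.00639) and upper-quartile scaling (0.34; limma, adjusted p = 0.00127), and was -0.13 with summed FPKM without mitochondrial genes. SPRY4-AS1 lies on the opposite strand but shares no exon bases with SPRY4, and it did not pass 0.355 FPKM.

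Both Sprouty genes were lower in GPD1 than in vector cells under metformin. SPRY4 was 2.93-fold lower (log2 fold change -1.04, SE 0.07; adjusted p = 4.60e-07 by limma), and SPRY2 was 1.66-fold lower (log2 fold change -0.65, SE 0.05; adjusted p = 1.72e-06 by limma). Without metformin SPRY2 was 1.26-fold lower in GPD1 cells (log2 fold change -0.29, SE 0.05; adjusted p = 0.00298 by limma). SPRY4 did not pass the test there, at -0.17 with a 95% interval from -0.33 to -0.01 (limma, adjusted p = 0.120). The log2 responses to metformin, GPD1 cells minus vector cells, differed by -0.87 ± 0.10 for SPRY4 (SE; limma interaction, adjusted p = 5.74e-05) and by -0.37 ± 0.08 for SPRY2 (SE; limma interaction, adjusted p = 0.00243). For SPRY2 that difference did not pass under upper-quartile scaling, at -0.18 (limma, adjusted p = 0.0768).

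SPRED1 and SPRED2 encode Sprouty-related proteins that bring neurofibromin, the RAS inactivator encoded by NF1, to the membrane. SPRED1 lies at chr15:38252326-38357249 on the plus strand and SPRED2 at chr2:65310851-65432637 on the minus strand. SPRED1 was at 0.976, 1.22 and 0.980 FPKM in GPD1 metformin libraries, against 4.92, 4.12 and 4.12 FPKM in GPD1 untreated libraries. With the blank virus the values were 2.55, 2.18 and 1.93 FPKM with metformin and 4.39, 4.20 and 3.98 FPKM without. Untreated libraries of both populations overlapped, and with metformin every GPD1 library lay below every vector library. SPRED1 fell 4.14-fold with metformin in GPD1 cells (log2 fold change -1.39, SE 0.09; adjusted p = 1.10e-07 by limma), and was 1.89-fold lower with metformin in vector cells. Its log2 responses differed by -0.69 ± 0.12, GPD1 cells minus vector cells (SE; limma interaction, adjusted p = 0.000953). Under metformin it was 2.096-fold lower in GPD1 than in vector cells (log2 fold change -0.64, SE 0.09; adjusted p = 7.95e-05 by limma). Without metformin its log2 fold change was 0.05, with an interval from -0.14 to 0.24 (limma, adjusted p = 0.731).

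SPRED2 was at 4.39, 4.28 and 4.35 FPKM in GPD1 metformin libraries, against 7.45, 7.26 and 7.64 FPKM in GPD1 untreated libraries. In vector cells it was at 4.41, 4.02 and 4.12 FPKM with metformin and at 7.50, 7.50 and 6.60 FPKM without. GPD1 and vector libraries overlapped in both media, while libraries with and without metformin did not. SPRED2 fell 1.72-fold with metformin in GPD1 cells (log2 fold change -0.66, SE 0.05; adjusted p = 7.61e-07 by limma), and was 1.72-fold lower with metformin in vector cells. The difference between those responses was -0.0013, with a 95% interval from -0.17 to 0.16 (limma interaction, adjusted p = 0.990). GPD1 and vector cells differed by 0.04 with metformin, with an interval from -0.07 to 0.16 (limma, adjusted p = 0.501). Upper-quartile scaling raised that to 0.25 (limma, adjusted p = 0.00213).

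**Figure D2:**
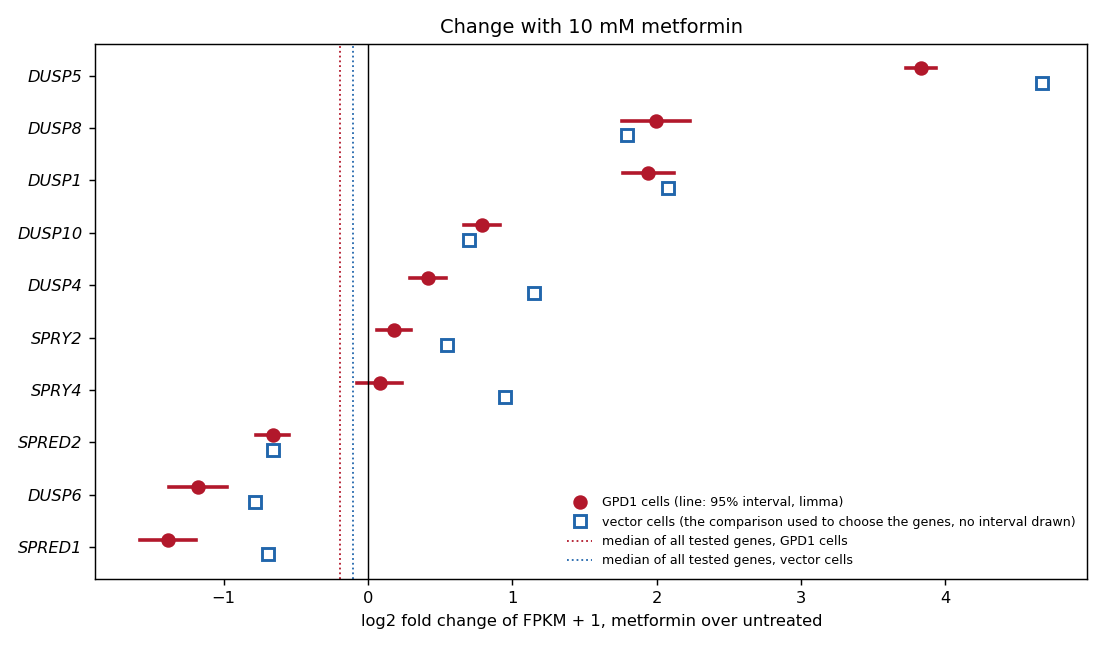
Log2 fold change of FPKM + 1 with 10 mM metformin over untreated for the 10 genes, with filled circles and 95% intervals for GPD1 cells, open squares for vector cells and dotted lines at the medians of all tested genes. In GPD1 cells the changes run from 3.83 for DUSP5 to -1.39 for SPRED1, and the median of all tested genes is -0.20.

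SPRED1 and SPRED2 are also the longest of the 10 genes, with spans of 104.9 and 121.8 kb in the annotation, against 3.11 kb for DUSP1 and 40.8 kb for DUSP10, the next longest. Over all tested genes, those with spans over 100 kb had a median log2 fold change of -0.29 with metformin in GPD1 cells, with 19.7% called higher and 58.0% called lower (limma, 1827 genes). Genes with spans of 20 to 100 kb lay close to these, with a median of -0.28, 21.5% higher and 55.3% lower (4677 genes). DUSP10, which rose, is in that class. Genes with spans under 20 kb had a median of -0.13, with 30.8% higher and 44.2% lower (3650 genes). Of the 10 feedback genes, 7 lie under 20 kb, and these hold DUSP6, which fell, beside DUSP1, DUSP4, DUSP5, DUSP8 and SPRY2, which rose, and SPRY4. The part of span in the changes was not tested.

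Comparing GPD1 with vector cells under metformin, 6 of the 9 genes tested were lower (SPRY4, DUSP6, DUSP4, SPRY2, SPRED1 and DUSP1), 1 was higher (DUSP10) and 2 did not pass the test (DUSP8 and SPRED2). Among all tested genes 35.0% were lower and 25.0% higher in that comparison, together 60.0%. Without metformin 2 of the 9 were lower (DUSP6 and SPRY2), DUSP10 was higher and 6 did not pass, against 11.3% lower and 9.99% higher calls among all tested genes, together 21.3%. The libraries of GPD1 and vector cells did not overlap in 8 of the 10 genes with metformin, against 64.8% of all tested genes, and in 7 of the 10 without it, against 41.4%. Both counts include DUSP5, which was chosen with the vector libraries in view. Lower levels of DUSP1, DUSP4, SPRY4 and SPRED1 in GPD1 cells were thus called under metformin and not without it. Whether the effect of GPD1 differed between the media is the interaction, which was called for DUSP4, SPRY4 and SPRED1, given above, and not for DUSP1, at -0.14 with a 95% interval from -0.39 to 0.11 (limma interaction, adjusted p = 0.342).

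**Figure D3:**
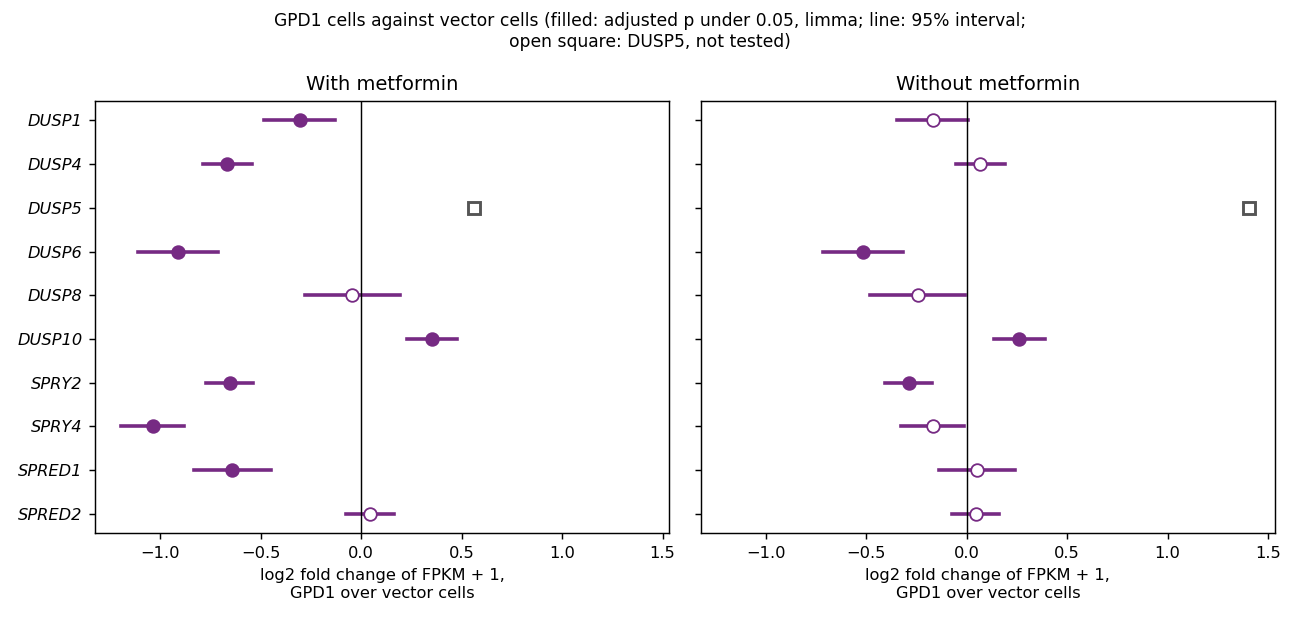
Log2 fold change of FPKM + 1 in GPD1 over vector cells, with metformin on the left and without it on the right, with 95% intervals, filled circles for adjusted p under 0.05 (limma) and an open square for DUSP5, which was not tested. With metformin the values run from -1.04 for SPRY4 to 0.35 for DUSP10 among tested genes, and without it from -0.52 for DUSP6 to 0.26 for DUSP10.

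For the interaction, 5 of the 9 genes tested had a more negative response to metformin in GPD1 than in vector cells (DUSP4, DUSP6, SPRY2, SPRY4 and SPRED1) and none a more positive one, at the same threshold of the limma test. Among all tested genes 26.8% had a more negative and 19.1% a more positive response, together 45.9%. For the other 4 genes the log2 differences were -0.14 for DUSP1, 0.20 for DUSP8, 0.09 for DUSP10 and -0.0013 for SPRED2. None of these passed, with adjusted p between 0.307 and 0.990 (limma). At an unadjusted p under 0.05 no gene of these 4 was added either. The interaction contains the comparison of metformin with none in vector cells, so these tests are not independent of the choice. That vector comparison was the one the choice used. There 7 of the 10 genes had higher and 3 had lower mean levels, given with no test. Of all tested genes 31.3% were called higher and 43.3% lower there, together 74.6%. These shares are of calls, so they are not a like measure for the counts of mean levels.

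FPKM is relative to a library total of reads or fragments. The mitochondrial share was lower with metformin, both of implied reads and, by more, of summed FPKM, as given above. The median log2 fold change of all tested genes with metformin in GPD1 cells was -0.20 as deposited, 0.06 under median-ratio scaling, 0.16 under upper-quartile scaling, -0.26 with read totals without mitochondrial genes and -0.49 with summed FPKM without them. Higher calls made up 35.2%, 53.7%, 61.6%, 31.0% and 17.3% of all calls under these scalings in turn. Under upper-quartile scaling the share was 62.2%, against 41.7% as deposited, for GPD1 against vector cells with metformin, and 61.5%, against 41.6%, for the interaction. In the vector comparison it was 42.0% as deposited, 55.7% under median-ratio, 56.2% under upper-quartile scaling and 27.8% with summed FPKM without mitochondrial genes. DUSP5 lay 3.93 to 4.14 above the median over the 5 scalings, DUSP8 2.17 to 2.23, DUSP1 2.04 to 2.26, DUSP10 0.97 to 1.00 and DUSP4 0.53 to 0.71. SPRY2 lay 0.33 to 0.43 above it and SPRY4 0.18 to 0.36. Relative values were -1.25 to -1.15 for SPRED1, -1.14 to -0.86 for DUSP6 and -0.50 to -0.42 for SPRED2. Ranges overlapped between DUSP8 and DUSP1 and between SPRY2 and SPRY4, and between no other pair. The signs of SPRY2 and SPRY4 against 0, as distinct from the median, depended on the scaling.

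**Figure D4:**
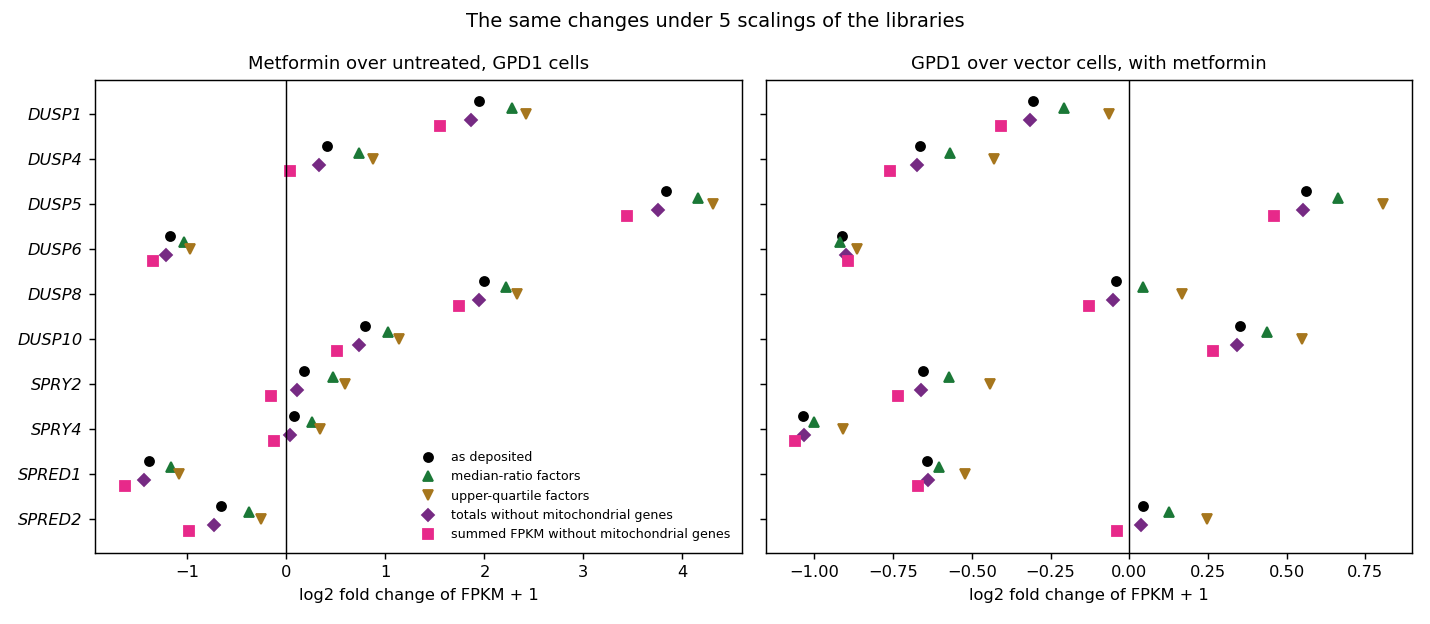
Log2 fold change of FPKM + 1 for the 10 genes under 5 scalings of the libraries, each with its own symbol, for metformin over untreated in GPD1 cells on the left and for GPD1 over vector cells with metformin on the right. In the left panel DUSP5 stays between 3.44 and 4.30, while SPRY2 crosses 0, between -0.15 and 0.59.

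The rest of the pathway was described with 13 lists of 108 genes, of which 85 were tested. With metformin in GPD1 cells 20 rose, 39 fell and 26 did not pass the test, beside 26.1% and 48.0% of all tested genes that rose and fell. ERK output genes, which are switched on by the pathway, had 7 higher, 3 lower and 2 not called among 12 tested, with a median log2 fold change of 1.18 against -0.20 over all tested genes. Of these, IER3, an early survival gene, was at 346 ± 15.6 FPKM in GPD1 metformin and 48.1 ± 1.07 FPKM in GPD1 untreated (log2 fold change 2.82; limma, adjusted p = 2.16e-10). EPHA2, an ephrin receptor, was at 179 ± 4.69 FPKM in GPD1 metformin and 51.8 ± 1.59 FPKM in GPD1 untreated (1.77; limma, adjusted p = 2.67e-10). EGR1, the early zinc-finger factor, fell to 3.01 ± 0.168 FPKM in GPD1 metformin, against 40.7 ± 3.75 FPKM in GPD1 untreated (-3.38; limma, adjusted p = 2.31e-10). ERK output genes, like the feedback genes, were thus called in both directions, with IER3 and EPHA2 higher and EGR1 lower.

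At the head of the pathway, 4 of 8 tested ligand genes rose and 3 fell. HBEGF, AREG and EREG, which encode ligands of the EGF receptor family, rose with log2 fold changes of 2.57, 1.76 and 1.55 (limma, adjusted p = 2.31e-10, 2.28e-09 and 3.31e-10). Of 8 tested receptor genes 1 rose and 5 fell. IGF1R was at 5.01 ± 0.160 FPKM in GPD1 metformin and 12.3 ± 0.461 FPKM in GPD1 untreated libraries (-1.14; limma, adjusted p = 5.48e-08), and MET and ERBB2 fell by 0.78 and 0.87 on the log2 scale. The 5 genes of RAS inactivators all fell as deposited, with a median of -0.55, and 4 were called lower under median-ratio and 2 under upper-quartile scaling. Among them NF1, whose product the SPRED proteins bind, lost its call under median-ratio scaling (-0.019; limma, adjusted p = 0.864) and turned in sign under upper-quartile scaling (0.095; limma, adjusted p = 0.367). RASA1, a GTPase activator for RAS, fell by 0.58 and LZTR1, an adaptor for RAS degradation, by 0.48 (limma, adjusted p = 5.06e-06 and 7.35e-05). SOS1 and SOS2, the exchange factors that load RAS, fell by 1.33 and 0.91, and RRAS rose by 1.00. Of the 10 genes for RAF, MEK, ERK and scaffolds, 1 rose, 2 fell and 7 did not pass. That list followed the scaling, with 8 higher and 0 lower under median-ratio scaling and 0 higher and 8 lower with summed FPKM without mitochondrial genes. Adaptors and RAS genes had 1 higher and 7 lower calls of 11, which upper-quartile scaling turned to 6 higher and 2 lower. ETS factors and SRF had 1 higher and 3 lower of 7 in this comparison, and 4 higher and 0 lower under upper-quartile scaling. Kinases activated by ERK had 1 higher and 2 lower of 4, JNK and p38 kinases 1 higher and 5 lower of 8, and other receptor feedback genes 1 higher and 1 lower of 3. Under upper-quartile scaling these 3 lists had 2 higher and 1 lower, 3 higher and 2 lower, and 2 higher and 1 lower in turn. With summed FPKM without mitochondrial genes they had 0 higher and 2 lower, 1 higher and 5 lower, and 0 higher and 2 lower.

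Among other MAP kinase phosphatases, DUSP2 was at 0 in every library, DUSP9 did not pass the filter, and DUSP7 and DUSP16 were tested. DUSP7, a cytoplasmic ERK phosphatase of the same class as DUSP6, was at 0.670 ± 0.0931 FPKM in GPD1 metformin and 1.71 ± 0.221 FPKM in GPD1 untreated libraries (log2 fold change -0.70; limma, adjusted p = 1.80e-05). In vector cells it was at 3.01 ± 0.311 FPKM with metformin and 1.93 ± 0.162 FPKM without, and the interaction was -1.15 (limma, adjusted p = 2.45e-05). Of 6 tested atypical DUSP genes, 1 rose and 2 fell, DUSP14 most, to 2.24 ± 0.0928 FPKM in GPD1 metformin, against 6.96 ± 0.425 FPKM in GPD1 untreated (-1.30; limma, adjusted p = 1.42e-08). That list had 3 higher and 1 lower under median-ratio scaling, 5 higher and 1 lower under upper-quartile scaling, and 0 higher and 4 lower with summed FPKM without mitochondrial genes. SPRY1 and SPRY3 did not pass the filter. SPRED3 was called higher, at 1.73 ± 0.368 FPKM with metformin and 0.992 ± 0.0881 FPKM without (0.45; limma, adjusted p = 0.0207). The call ended with summed FPKM without mitochondrial genes (0.22; limma, adjusted p = 0.216).

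Under metformin, GPD1 cells differed from vector cells in 21 higher and 36 lower calls of the 85, beside 25.0% higher and 35.0% lower among all tested genes. The list of ETS factors and SRF, which carry the ERK signal to DNA, had 0 higher, 5 lower and 2 not called, with a median log2 fold change of -0.68 against -0.05 over all tested genes, and the same 0 and 5 under all 5 scalings. SRF was at 11.1 ± 1.00 FPKM in GPD1 metformin and 27.7 ± 1.06 FPKM in vector metformin libraries (-1.25; limma, adjusted p = 4.61e-08), and ELK4, a partner of SRF, and ETS2 were lower by log2 fold changes of -1.09 and -0.68. All 3 tested genes of other receptor feedback were lower, with ERRFI1, an inhibitor of the EGF receptor, at 28.4 ± 0.426 FPKM in GPD1 metformin and 49.6 ± 3.64 FPKM in vector metformin (-0.78; limma, adjusted p = 7.10e-07). CBL and LRIG1, which promote the loss of receptors, were lower by -0.35 and -0.28. ERK output genes were not lower as a list, with 6 higher, 4 lower and 2 not called of 12 and a median of 0.38. Upper-quartile scaling gave 6 higher and 2 lower, and summed FPKM without mitochondrial genes 5 and 5. Among the higher, FOS was at 9.55 ± 2.14 FPKM in GPD1 metformin and 0.610 ± 0.181 FPKM in vector metformin (2.70; limma, adjusted p = 5.75e-08). Without metformin it was at 21.5 ± 1.82 FPKM in GPD1 untreated and 23.1 ± 2.21 FPKM in vector untreated cells. Without metformin, the 85 genes had 11 higher, 16 lower and 58 uncalled values in GPD1 against vector cells, beside 9.99% higher and 11.3% lower among all tested genes. EREG was lower there, at 8.99 ± 0.291 FPKM in GPD1 untreated against 16.8 ± 0.336 FPKM in vector untreated (-0.83; limma, adjusted p = 1.87e-07). In the interaction, 21 were more positive and 27 more negative, beside 19.1% and 26.8% of all tested genes. ERK output genes had 6 more positive and 1 more negative of 12 there, and ETS factors and SRF 0 and 5 of 7.

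**Figure D5:**
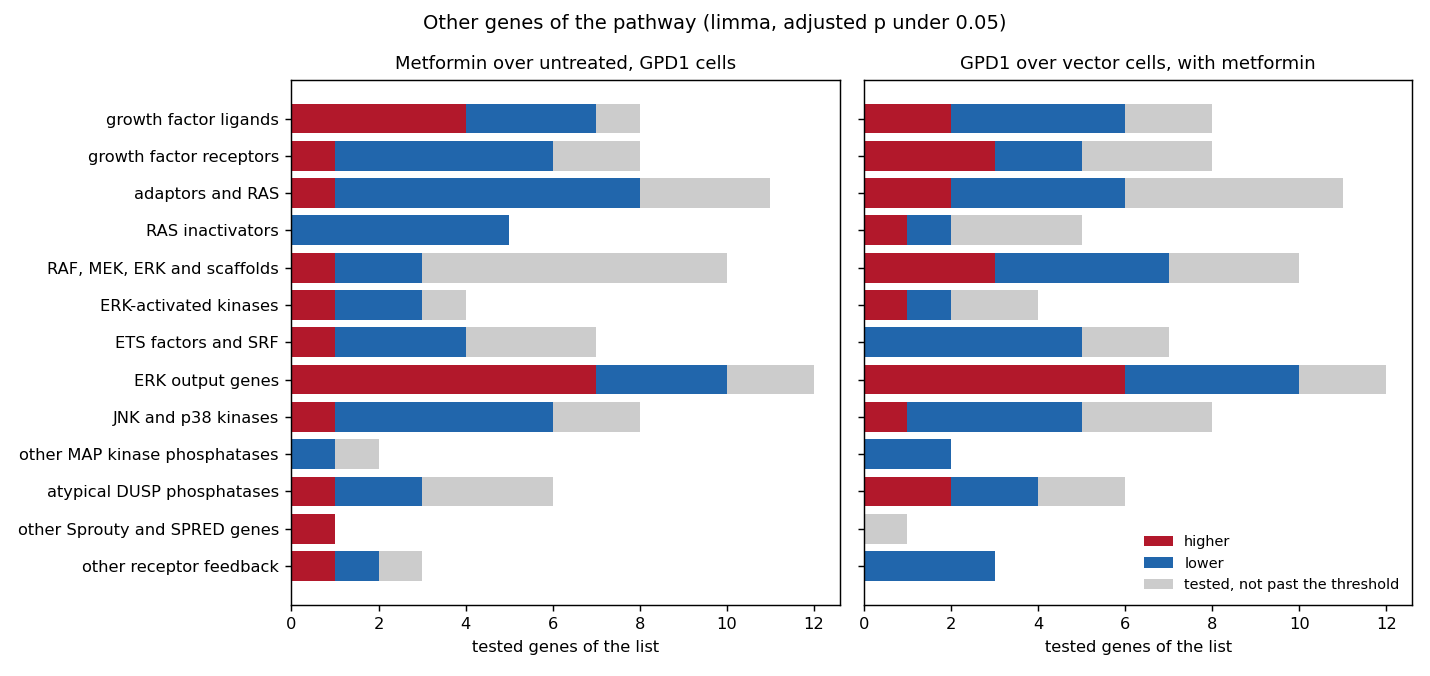
Number of tested genes of each of 13 pathway lists that were higher, lower or not past the threshold (limma, adjusted p under 0.05), for metformin over untreated in GPD1 cells on the left and for GPD1 over vector cells with metformin on the right. ERK output genes have 7 higher and 3 lower calls in the left panel, and ETS factors and SRF have 0 higher and 5 lower calls in the right panel.

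The genes whose levels followed those of DUSP5 and DUSP6 most closely were found by Pearson's correlation of log2(FPKM + 1) over the 12 libraries, among tested protein-coding genes that averaged 5 FPKM or more. The 12 libraries fall into 4 groups and share their depth and scaling, so the values are descriptions. For DUSP5 the closest of 4885 genes were SCD (0.999), which encodes the stearoyl-CoA desaturase, TFE3 (0.998), NECTIN2 (0.998), LAMB2 (0.994) and F11R (0.993). SCD averaged 476 FPKM in GPD1 metformin, 158 FPKM in GPD1 untreated, 389 FPKM in vector metformin and 108 FPKM in vector untreated libraries. It shared the order of the 4 groups with DUSP5 over a smaller range. For DUSP6 the closest of 4886 genes were DNAJC14 (0.990), DBN1 (0.989), FBH1 (0.985), ASMTL (0.984) and ZNRF3 (0.983). DNAJC14 averaged 2.50 FPKM in GPD1 metformin, 6.98 FPKM in GPD1 untreated, 5.30 FPKM in vector metformin and 10.7 FPKM in vector untreated libraries.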

How the data were processed

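Polyadenylated RNA of A549 cells was sequenced in 12 libraries (NEBNext Ultra kit), per the labels' protocols. The authors deposited 1 table of 58302 genes with no unit in its header. As deposited, its values are FPKM, that is, normalised to exon length and library total before deposit, as far as the values show, since low values times the exon length in GENCODE release 29 fall on whole multiples of 1 step (64.7% to 69.5% of low values within 0.02). CASAVA 1.8, HISAT2 2.1.0, edgeR and GRCh38/hg38 are named, per the submitters' processing notes, with no settings. FPKM values are shares of a total, so a change in abundant genes moves all others.

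From these values, limma 3.58.1 (R 4.3.3, intensity trend, 4 group means) was fitted to log2(FPKM + 1) of the 12607 genes whose mean over all libraries reached 1 FPKM, with Benjamini-Hochberg adjustment over all of them and a threshold of 0.05, in 5 comparisons. The fit was tested on simulated data. Folds are ratios of mean FPKM. The scalings, another pseudocount, no filter, a fit of the compared groups alone, a replicate block and leaving out each library were tried; summed FPKM without mitochondrial genes was added after seeing the data. The 10 genes and the 13 pathway lists were chosen with earlier results of these data known. Of each pathway list and comparison, up to 3 genes with the smallest p among those past the threshold and without overlap could be named (overlap was not asked of the interaction), and then followed through the other comparisons; the 5 genes closest to DUSP5 and to DUSP6 were named by correlation. NF1 and genes below the filter are named without regard to this rule. Promoter windows are from RefSeq.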

Additional observations from a re-analysis of the deposited data

Results flagged for a closer look

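For 5 of the 9 genes tested, the response to metformin differed between GPD1 and vector cells, by the interaction of GPD1 and metformin in limma. The log2 differences, GPD1 response minus vector response, were -0.87 for SPRY4, -0.73 for DUSP4, -0.69 for SPRED1, -0.40 for DUSP6 and -0.37 for SPRY2. DUSP4 and SPRY2 had smaller positive changes in GPD1 than in vector cells, SPRY4 was called in neither direction in GPD1 cells, and SPRED1 and DUSP6 had larger negative changes there. The value of DUSP6 missed the threshold without 1 of 3 libraries, at -0.38, -0.37 and -0.35. It also missed it without the filter on low genes (limma, adjusted p = 0.0637). That of SPRY2 missed it under upper-quartile scaling, at -0.18 (limma, adjusted p = 0.0768). Of all tested genes 45.9% had a called difference of either sign. The interaction contains the vector comparison that the choice of the genes used, so these tests are not independent of that choice. The share of summed FPKM from the mitochondrial genome was 10.3% to 11.4% in GPD1 metformin and 13.7% to 14.9% in vector metformin libraries, and its part in these differences was not tested. Relative to the median of all tested genes and over the 5 scalings, the differences ranged from -0.89 to -0.77 for SPRY4, from -0.71 to -0.65 for DUSP4, from -0.71 to -0.61 for SPRED1, from -0.51 to -0.25 for DUSP6 and from -0.32 to -0.30 for SPRY2.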

How the results depend on the processing

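Of 731 values of the 37 tested gene and comparison pairs under alternatives, 699 had the direction and the side of the threshold reported, 8 lost the call, 5 gained it and 19 changed sign. With summed FPKM without mitochondrial genes, metformin in GPD1 cells gave -0.15 for SPRY2, -0.13 for SPRY4 and 0.04 for DUSP4, SPRED2 in GPD1 against vector cells with metformin was -0.038, and the interaction of DUSP10 was -0.0018. DUSP8 in GPD1 against vector cells with metformin was 0.042 under median-ratio and 0.17 under upper-quartile scaling, and -0.15 to 0.070 with 1 library left out. Interactions changed sign for DUSP1 (0.077, upper quartile) and for SPRED2 (0.067 median ratio, 0.18 upper quartile, 0.010 for read totals without mitochondrial genes, 0.0021 with a pseudocount of 0.1, -0.028 to 0.053 with 1 library left out). Upper-quartile scaling brought the DUSP10 interaction past the threshold (0.29; limma, adjusted p = 0.0158). Without metformin and with 1 library left out, SPRED1 ranged from -0.019 to 0.087 and SPRED2 from -0.0090 to 0.072. The causes were not tested. Without the filter, 14315 genes were called with metformin in vector cells, against 9411; more genes are tested then. Replicate numbers did not pair the libraries (same-number correlations of deviations from -0.065 to 0.056), and with the replicate block no call of the 10 genes changed, while 9253 genes were called with metformin in GPD1 cells, against 9349. DUSP6, at 23 to 276 implied reads, is limited by depth.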
